A study of Saccharomyces cerevisiae with 40 samples.

Results

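The comparison described here set RM11 cells grown in minimal media with tryptophan, tyrosine and phenylalanine added (WYF) against RM11 cells grown in minimal media alone (YM), both without herbicide, and asks what the supply of aromatic amino acids changed in the transcriptome. Its members are 10 of the 40 RNA-seq libraries of the study, 5 replicates from each medium, chosen by the strain, medium and treatment in their labels and by no measured value. The whole study covered RM11 and the laboratory strain S288c (GSY147) in both media, untreated or exposed to Cr41 (Credit41), a commercial glyphosate formulation.

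RM11 is a haploid vineyard strain of Saccharomyces cerevisiae, and a single isolate stood for the strain. Neither group received Cr41. The paper's gene expression methods do not state the growth phase at harvest. In YM the cells must make every amino acid themselves. All 5 WYF libraries were sequenced on lane 3 and all 5 YM libraries on lane 2, so a difference between media and a difference between lanes cannot be told apart in any result below. The labels do not state that replicates came from separate cultures, so the p-values measure only the spread between these libraries, which may be technical.

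Yeast sense external amino acids at the plasma membrane with the SPS sensor, formed by Ssy1, Ptr3 and Ssy5, which activates the factors Stp1 and Stp2 and through them genes for amino acid and peptide permeases. Tryptophan, tyrosine and phenylalanine are also inducers of the Aro80 activator, whose targets ARO9 and ARO10 encode an aromatic aminotransferase and a decarboxylase of the Ehrlich pathway, the route by which these amino acids give up their nitrogen and become fusel alcohols. Genes for poorer nitrogen sources are held down by nitrogen catabolite repression when better ones are at hand, through GATA factors such as Gln3, Gat1 and Dal80.

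Some of the genes with the largest changes carry letters of such regulators upstream, while others, among them DIP5, GNP1, TAT2 and BAP3, held none of the motifs searched. Letters were searched on both strands of the 600 bases before the annotated start of 5971 genes in the R64 assembly of RefSeq, and matches may overlap each other. The Aro80-type motif CCGNNNNNNNCCG was found in 6.35% of these promoters, and only 6 promoters (0.1%) held at least 4 matches. ARO9 held 5 matches and ARO10 held 4, shown in capitals in these stretches, which lie at chrIV:1233851-1233998 for ARO10 and chrVIII:375453-375601 for ARO9, both on the plus strand.
ARO10: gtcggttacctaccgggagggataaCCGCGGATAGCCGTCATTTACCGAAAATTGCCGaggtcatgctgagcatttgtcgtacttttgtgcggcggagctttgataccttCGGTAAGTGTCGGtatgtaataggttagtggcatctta
ARO9: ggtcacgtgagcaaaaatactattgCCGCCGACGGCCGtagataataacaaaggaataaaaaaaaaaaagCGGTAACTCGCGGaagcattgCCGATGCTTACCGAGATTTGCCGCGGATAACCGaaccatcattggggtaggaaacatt
A GATA element, searched as GATAAG, was found in 26.8% of all promoters. Stretches of DAL80 (chrXI:506583-506701, plus strand) and DAL5 (chrX:719248-719397, plus strand), which fell in WYF, show it in capitals in both orientations.
DAL80: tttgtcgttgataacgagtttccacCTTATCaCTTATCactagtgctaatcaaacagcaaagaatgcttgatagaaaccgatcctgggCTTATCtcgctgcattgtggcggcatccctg
DAL5: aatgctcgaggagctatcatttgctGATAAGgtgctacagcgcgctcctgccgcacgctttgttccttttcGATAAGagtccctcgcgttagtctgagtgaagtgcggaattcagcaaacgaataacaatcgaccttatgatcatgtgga
The core of the site of Aft1, the activator of the iron regulon, was searched as GGGTGCA and found in 2.68% of promoters. FIT2 (chrXV:1059175-1059324, plus strand) and FIT3 (chrXV:1061216-1061365, minus strand) are neighbouring cell wall genes of that regulon which also fell in WYF.
FIT2: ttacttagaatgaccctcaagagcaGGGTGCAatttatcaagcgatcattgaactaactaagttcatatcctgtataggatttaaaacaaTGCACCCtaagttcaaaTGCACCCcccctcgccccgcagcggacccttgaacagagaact
FIT3: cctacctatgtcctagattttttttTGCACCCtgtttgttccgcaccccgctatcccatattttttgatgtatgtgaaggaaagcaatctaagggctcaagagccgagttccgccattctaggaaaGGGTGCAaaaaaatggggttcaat
A match of letters is a description of S288c sequence, and the RM11 sequence of these regions was not used here.

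Expression was estimated by the authors as counts per transcript of the S288c reference, so RM11 reads were counted only where they matched that reference. Libraries held 5226067 to 6663887 estimated counts in WYF (median 6309827) and 4224356 to 7060270 in YM (median 5698922). Levels below are CPM, each transcript's counts relative to all counts of its library after TMM scaling. A gene was called when the edgeR quasi-likelihood test gave a Benjamini-Hochberg adjusted p under 0.05 and the change was at least 2-fold, that is a log2 fold change (WYF over YM) of at least 1 in size. Errors given with log2 fold changes are approximate, each being the size of the change divided by the square root of the test's F statistic. For genes with few reads in 1 medium, such as ARO10 in YM, they can be too small. The first principal component carried 56.2% of the variance and separated the media without overlap. Markers of mating type a were expressed at 1505 to 1610 CPM summed over 7 genes in WYF and 1550 to 1641 in YM, whereas the 5 genes of mating type alpha summed to 54.1 to 56.5 CPM in WYF and 55.5 to 67.9 CPM in YM.

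A pair of libraries stood apart. WYF replicate 2 carried reads of 75 transcripts, 48 of them Ty retrotransposon ORFs, that S288c expressed and RM11 otherwise did not. They summed to 2106 CPM, 2.71% of their level in S288c, against 463 CPM in WYF replicate 1 and 42.9 to 140.1 CPM in the other 8 libraries. YM replicate 5 had lower levels of heat shock genes than the other 4 YM libraries, as detailed below. Some of the results that rest on either library are given with and without it, where stated.

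Of 5499 genes tested, 98 were called (1.78%), of which 26 were higher (0.473%) and 72 were lower (1.31%) in WYF. By the adjusted p alone, 721 genes were higher (13.1%) and 727 were lower (13.2%), so changes under 2-fold were far more common than larger ones and were evenly divided. The groups did not overlap in 985 of the genes tested (17.9%) and in 91 of the 98 called. Over all genes tested the log2 fold changes had a median of 0.004. Without WYF replicate 2 and YM replicate 5, 111 genes were called, and 93 of the 98 remained among them.

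The largest rises were those of the Ehrlich pathway genes ARO10 (chrIV:1234218-1236125, plus strand) and ARO9 (chrVIII:375709-377250, plus strand). ARO10 stood at 197, 216, 256, 251 and 197 CPM in the 5 WYF libraries, against 0.87, 0.56, 0.71, 0.70 and 0.40 CPM in the 5 YM libraries. The YM values rest on 19 reads in all, against 6796 reads in WYF. Every WYF library was far above any YM library, and the log2 fold change was 8.38 ± 0.15 (edgeR adjusted p = 2.5e-17). On the log2(TPM + 1) scale it was 5.88, since the added 1 exceeds the level in YM. ARO9 stood at 239, 268, 269, 295 and 235 CPM in WYF, against 1.75, 1.25, 1.19, 2.25 and 2.20 CPM in YM, a log2 fold change of 7.21 ± 0.12 (edgeR adjusted p = 8e-18).

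The activator gene of both showed no call. ARO80 stood at 77.8, 83.5, 105, 89.6 and 78.8 CPM in WYF and at 83.7, 80.7, 76.7, 80.9 and 72.7 CPM in YM. The groups overlapped, and the log2 fold change of 0.14 ± 0.08 did not pass the test (edgeR adjusted p = 0.21).

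Other genes of the list for aromatic catabolism moved less or in the other direction. Of its 17 members, all tested, 2 were called higher (ARO9 and ARO10) and 1 lower, and by the adjusted p alone 2 were higher and 8 lower, against 13.1% and 13.2% of all genes, with a median log2 fold change of -0.30. The gene called lower was ADH5, an alcohol dehydrogenase gene, at 51.0, 54.0, 49.7, 48.1 and 52.7 CPM in WYF against 102, 100.2, 104, 104 and 121 CPM in YM. Its log2 fold change was -1.06 ± 0.06 (edgeR adjusted p = 1.3e-09), and the groups were clear of each other. The pyruvate decarboxylase genes PDC5 (-0.86 ± 0.09) and PDC1 (-0.41 ± 0.04) also fell, with edgeR adjusted p = 1.1e-06 and 4.1e-07. ADH4 (-0.73 ± 0.28) did not pass the test, with edgeR adjusted p = 0.087.

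Of the 13 genes tested in the pathway that makes the 3 added amino acids, 7 fell by small amounts. None reached 2-fold, and by the adjusted p 7 were lower and none higher, against 13.2% of all genes lower, and the median log2 fold change was -0.21 against 0.004 over all genes. ARO1, which encodes the pentafunctional shikimate pathway enzyme whose EPSP synthase activity glyphosate inhibits, stood at 587, 560.1, 542, 549 and 605 CPM in WYF against 761, 729, 798, 740.2 and 758 CPM in YM. No WYF library reached the lowest YM library, and the log2 fold change was -0.41 ± 0.04 (edgeR adjusted p = 1.7e-06). ARO3, which encodes the DAHP synthase inhibited by phenylalanine, fell by a log2 fold change of -0.35 ± 0.06 (edgeR adjusted p = 0.00016). ARO4, its tyrosine-sensitive partner, had -0.21 ± 0.10 and did not pass (edgeR adjusted p = 0.14). In the tryptophan branch TRP2 (-0.34 ± 0.08), TRP3 (-0.35 ± 0.05) and TRP5 (-0.34 ± 0.05) fell, while TRP1 (0.08 ± 0.05) and TRP4 (-0.07 ± 0.05) did not pass the test. ARO2, for chorismate synthase, and ARO8, for the main aromatic aminotransferase, were the other members that fell, by -0.20 ± 0.05 and -0.23 ± 0.04. In the branch to phenylalanine and tyrosine, ARO7 (-0.10 ± 0.07), PHA2 (0.15 ± 0.08) and TYR1 (-0.02 ± 0.10) did not pass the test.

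Permease genes were the largest group among the rises. Of 21 permease genes measured, 20 were tested. Of these, 7 were called higher and none lower, and by the adjusted p alone 10 were higher and 2 lower, against 0.473% of all genes called higher and 13.1% higher and 13.2% lower by the adjusted p. Summed over the list, permease transcripts took 4312 to 4609 CPM in WYF and 1608 to 1865 CPM in YM.

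AGP1, which encodes a permease of broad specificity (chrIII:76018-77919, minus strand), stood at 1839, 1848, 1808, 1849 and 1711 CPM in WYF, against 26.9, 33.8, 32.1, 30.9 and 35.5 CPM in YM. The values within each medium were close together, and the log2 fold change was 5.83 ± 0.06 (edgeR adjusted p = 1.6e-20). Per length of transcript, AGP1 averaged 539 TPM in WYF, the highest of the 13 permease and catabolism genes plotted by library, against 9.56 TPM in YM.

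DIP5, the permease gene for glutamate and aspartate (chrXVI:41043-42869, plus strand), stood at 307, 299, 308, 327 and 247 CPM in WYF against 1.57, 3.34, 2.38, 2.11 and 1.60 CPM in YM. Its log2 fold change of 7.03 ± 0.13 was the third largest of the comparison (edgeR adjusted p = 2.2e-16). GNP1, a glutamine permease gene with broader specificity, stood at 174, 169.6, 166, 164 and 151 CPM in WYF. In YM it varied more than the others, at 1.22, 5.01, 1.67, 7.45 and 2.003 CPM, and the log2 fold change was 5.43 ± 0.27 (edgeR adjusted p = 2.6e-07).

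TAT2, the high-affinity tryptophan and tyrosine permease gene, stood at 109, 106, 91.6, 83.4 and 117 CPM in WYF against 3.14, 3.62, 2.62, 2.95 and 3.41 CPM in YM, a log2 fold change of 4.98 ± 0.13 (edgeR adjusted p = 2.5e-15). TAT1, the other tyrosine and tryptophan permease gene, was not called in RM11. It stood at 5.31, 2.39, 1.88, 2.42 and 2.72 CPM in WYF and 2.62, 2.64, 2.14, 2.95 and 1.60 CPM in YM, from 89 and 72 reads in all. The groups overlapped, and the log2 fold change was 0.27 ± 0.29 (edgeR adjusted p = 0.54).

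The branched-chain amino acid permease genes BAP2 and BAP3 lay clear of their YM levels. BAP2 stood at 130.4, 128, 108, 112 and 96.1 CPM in WYF against 6.81, 7.09, 7.86, 6.88 and 7.81 CPM in YM (log2 fold change 3.99 ± 0.10, edgeR adjusted p = 2.8e-15). BAP3 stood at 169.8, 166, 157, 155 and 178 CPM in WYF against 9.96, 13.4, 17.4, 8.85 and 9.21 CPM in YM (3.84 ± 0.13, edgeR adjusted p = 5.8e-12). MUP1, the high-affinity methionine permease gene, had the smallest change of the 7, at 203, 177, 163, 177 and 210.1 CPM in WYF against 21.3, 25.04, 24.0, 24.2 and 25.6 CPM in YM (2.95 ± 0.08, edgeR adjusted p = 8.3e-15).

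**Figure D1:**
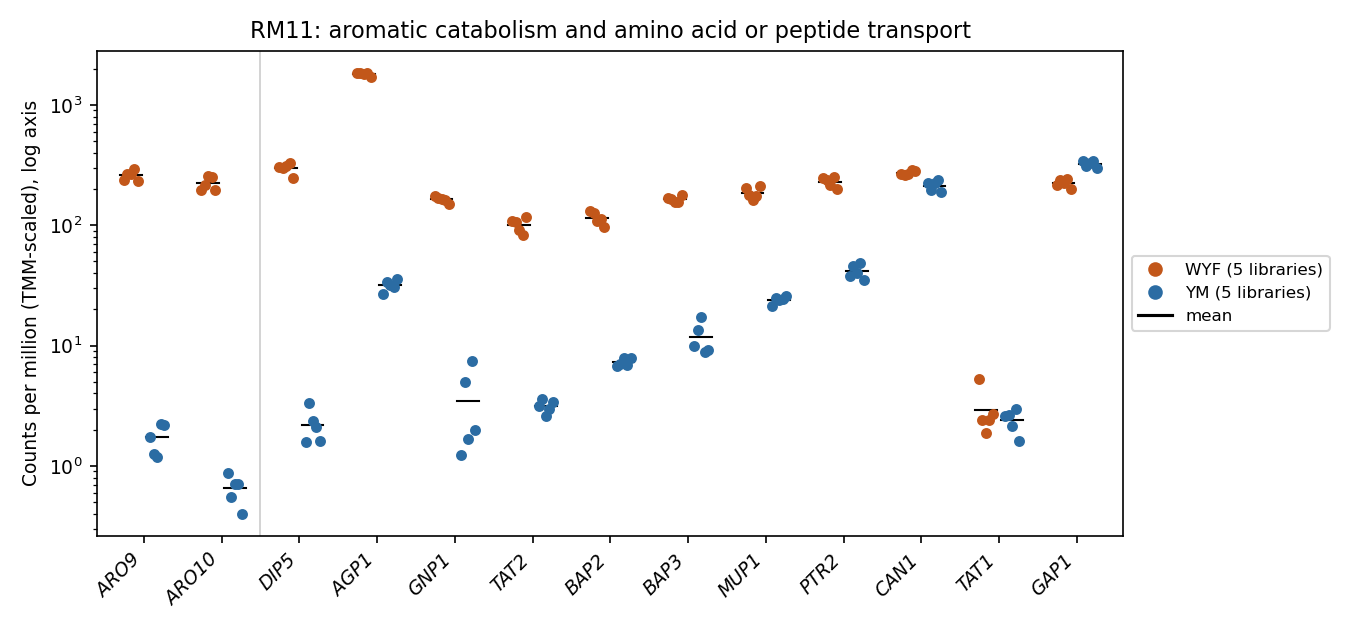
CPM on a log axis for 2 aromatic catabolism genes and 11 transport genes in the 5 WYF libraries (left, orange) and the 5 YM libraries (right, blue) of untreated RM11; each point is a library and each bar a mean. The first 10 genes are clear of YM in every WYF library, CAN1 and GAP1 differ by less than 2-fold in opposite directions, and TAT1 overlaps.

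Other permease genes changed by less than 2-fold. GAP1, the general amino acid permease gene under nitrogen catabolite repression, stood at 216, 238, 224, 244 and 202 CPM in WYF against 345, 313, 329, 345 and 297 CPM in YM, and fell with a log2 fold change of -0.54 ± 0.06 (edgeR adjusted p = 2.1e-06). CAN1, for arginine, rose by 0.35 ± 0.06 and AGP2 by 0.53 ± 0.12 on the log2 scale (edgeR adjusted p = 0.00029 and 0.0031). PUT4, the proline permease gene, averaged 518 CPM in WYF and 542 CPM in YM and did not pass the test. UGA4, for GABA, had 13 reads in WYF and 20 in YM over 5 libraries each and was too low to be tested.

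The genes of the SPS sensor itself had no call. Of 11 genes listed, the peptide transporter gene PTR2 was the single one called. PTR2 stood at 249, 236, 216, 250.2 and 199.6 CPM in WYF against 38.1, 45.5, 40.5, 48.3 and 34.9 CPM in YM (log2 fold change 2.46 ± 0.09, edgeR adjusted p = 3.5e-12). SSY1, PTR3, SSY5, STP1 and DAL81 did not pass the test, and STP2 fell by a log2 fold change of -0.16 ± 0.05 (edgeR adjusted p = 0.013). The motif CGGCNNNNCGGC, known for Stp1, was found in 0.469% of all promoters and in 1 of those of the 7 permease genes called, that of BAP2.

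YHR033W, an ORF of unknown function, was among the 10 largest rises. It stood at 359, 397, 361, 377 and 325 CPM in WYF against 42.6, 47.6, 43.6, 49.9 and 47.1 CPM in YM (log2 fold change 2.97 ± 0.06, edgeR adjusted p = 1.8e-16). Among the other genes called higher, chosen here after their values were seen, OPT2 (2.53 ± 0.12), an oligopeptide transporter gene, and VHR2 (2.02 ± 0.10) were next in size. AQR1, whose product is a plasma membrane transporter that excretes amino acids, rose by 1.01 ± 0.07 (edgeR adjusted p = 5.2e-09). POX1, for the first step of peroxisomal beta-oxidation, rose by 1.03 ± 0.11 (edgeR adjusted p = 1.3e-06). CYC7, the isoform 2 cytochrome c gene, had a log2 fold change of 1.07 ± 0.35 with overlapping groups (edgeR adjusted p = 0.048), and it lost its call in 9 of the 10 fits that left out a library.

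Tryptophan is also the source of NAD through the kynurenine pathway. None of the 16 genes of that list reached 2-fold, while 4 were higher and 3 lower by the adjusted p, against 13.1% and 13.2% of all genes. BNA2, for the tryptophan dioxygenase of the first step, stood at 42.6, 38.9, 45.8, 47.1 and 48.8 CPM in WYF against 61.5, 59.8, 56.7, 64.8 and 69.5 CPM in YM and fell with a log2 fold change of -0.49 ± 0.07 (edgeR adjusted p = 9.5e-05). BNA2 overlaps the ORF YJR079W, so part of its reads could belong to the other. TNA1, for uptake of nicotinic acid and quinolinic acid, rose by 0.38 ± 0.05 (edgeR adjusted p = 5.5e-05).

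Of the gene lists, that of poor nitrogen sources held the most genes called lower and the lowest median log2 fold change. All 25 listed genes were tested, and 10 were called lower and none higher, against 1.31% of all genes called lower. By the adjusted p, 17 were lower and 2 higher, and the median log2 fold change was -0.75. Their transcripts summed to 2302 to 2523 CPM in WYF and 4006 to 4220 CPM in YM.

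DAL80, which encodes a GATA repressor that is itself under the same control, stood at 14.2, 16.7, 21.4, 16.5 and 14.8 CPM in WYF against 139, 132, 139, 142 and 128 CPM in YM (log2 fold change -3.02 ± 0.09, edgeR adjusted p = 1.9e-14). MEP2, the high-affinity ammonium permease and sensor gene, was the most abundant of them, at 153, 154, 149, 173 and 161 CPM in WYF against 1112, 1106, 1127, 1185 and 975 CPM in YM. Its log2 fold change was -2.80 ± 0.06 (edgeR adjusted p = 1.8e-16), and both genes were clear of overlap.

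DAL5, the allantoate and ureidosuccinate permease gene, stood at 5.63, 4.94, 6.10, 9.25 and 7.98 CPM in WYF against 45.8, 40.3, 41.2, 46.6 and 52.3 CPM in YM (-2.73 ± 0.14, edgeR adjusted p = 7.1e-11). DAL7, the malate synthase of allantoin use, stood at 15.3, 16.2, 17.5, 21.2 and 15.95 CPM in WYF against 70.7, 60.8, 66.7, 69.8 and 71.3 CPM in YM (-1.97 ± 0.09, edgeR adjusted p = 1.4e-11). The other 6 called were PUT1 for proline, DUR3 for urea uptake, and DAL1, DAL2, DAL3 and DAL4 of the allantoin pathway, named after their values were seen, with log2 fold changes between -1.89 and -1.14. The letters GATAAG lay upstream of all 10 called and of 21 of the 25 tested.

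**Figure D2:**
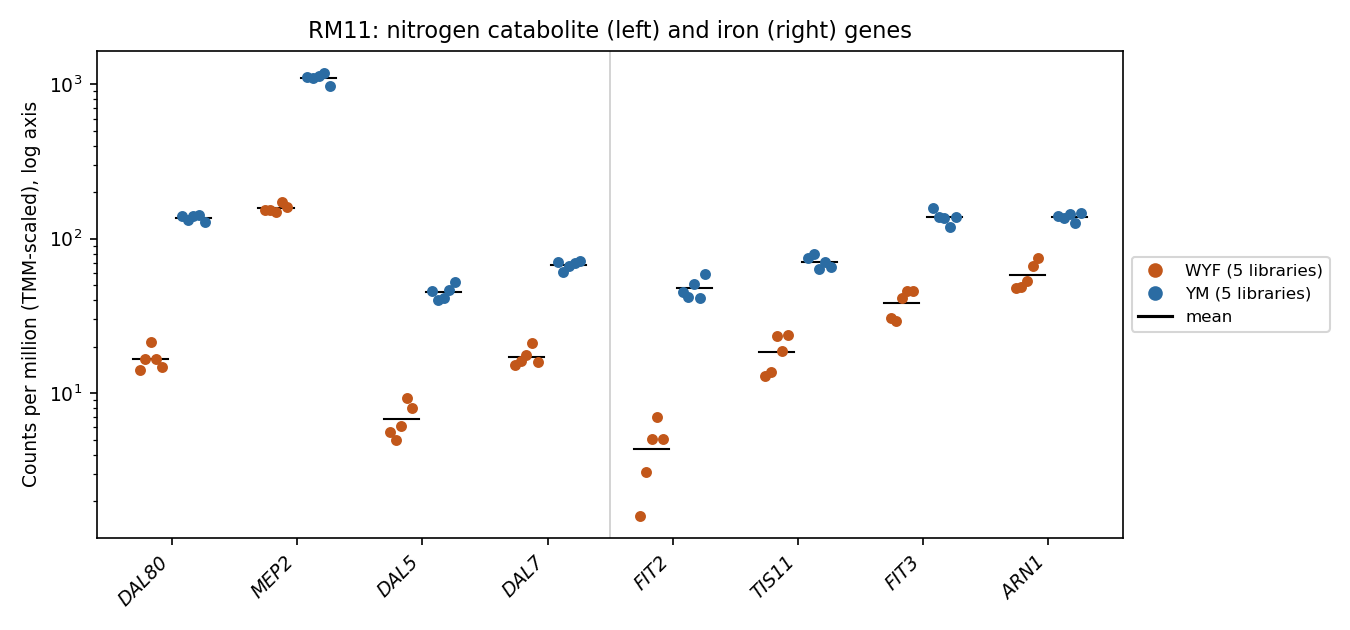
CPM on a log axis for 4 nitrogen catabolite genes and 4 iron regulon genes in the 5 WYF libraries (left, orange) and the 5 YM libraries (right, blue) of untreated RM11, with means as bars. The highest WYF library is below the lowest YM library for each of the 8 genes.

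Genes of the iron regulon were also lower in WYF. Of 31 listed genes measured, 28 were tested, 9 were called lower and none higher, and by the adjusted p 23 were lower and 3 higher, with a median log2 fold change of -0.61. Of all genes, 1.31% were called lower and 13.2% were lower by the adjusted p. FIT2, a cell wall mannoprotein gene that helps retain siderophore iron, stood at 1.61, 3.07, 5.00, 6.97 and 5.06 CPM in WYF against 45.4, 41.7, 51.2, 41.6 and 58.7 CPM in YM (log2 fold change -3.44 ± 0.24, edgeR adjusted p = 3.6e-07). FIT3, a second gene of that kind, stood at 30.5, 29.3, 41.4, 45.8 and 45.5 CPM in WYF against 157, 138, 136, 119 and 138 CPM in YM (-1.84 ± 0.12, edgeR adjusted p = 1e-07). Both stayed clear of their YM levels in every WYF library.

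TIS11, the gene of an mRNA-binding protein that promotes decay of transcripts of iron-using pathways, stood at 12.9, 13.6, 23.5, 18.8 and 23.9 CPM in WYF against 75.1, 79.0, 64.04, 71.1 and 65.3 CPM in YM (-1.94 ± 0.15, edgeR adjusted p = 4.4e-07). ARN1, a siderophore transporter gene, had -1.25 ± 0.11 and FRE5, a putative ferric reductase gene with 40 reads in WYF and 201 in YM, had -2.36 ± 0.25 (edgeR adjusted p = 1.1e-06 and 2e-06). The letters GGGTGCA lay upstream of 8 of the 9 genes called and of 20 of the 28 tested. Copper genes had no call, and 3 of 8 tested were lower by the adjusted p, against 13.2% of all genes.

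Heat shock genes held the largest falls of the comparison, and these were the values in which YM replicate 5 stood apart. HSP30, which encodes a stress-induced regulator of the plasma membrane proton pump, stood at 3.21, 4.43, 3.44, 3.94 and 1.95 CPM in WYF against 95.4, 76.2, 96.2, 83.7 and 25.4 CPM in YM, with replicate 5 last. Its log2 fold change was -4.45 ± 0.45 (edgeR adjusted p = 0.00012), and -4.66 ± 0.13 without YM replicate 5 (edgeR adjusted p = 7.1e-14). BTN2, for a sorting factor of misfolded proteins, stood at 14.3, 18.2, 21.3, 16.7 and 12.1 CPM in WYF against 279, 287, 221, 233 and 27.0 CPM in YM. Its log2 fold change was -3.66 ± 0.60 (edgeR adjusted p = 0.0024), and -3.94 ± 0.13 without that library. In both genes even YM replicate 5 remained above every WYF library.

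HSP42, a small heat shock protein gene, stood at 180.1, 212, 245, 225 and 158 CPM in WYF against 765, 679, 667, 710.3 and 281 CPM in YM (log2 fold change -1.60 ± 0.27, edgeR adjusted p = 0.0028). HSP104, the disaggregase gene, stood at 328, 398, 401, 403 and 304 CPM in WYF against 979, 864, 884, 825 and 445 CPM in YM (-1.12 ± 0.21, edgeR adjusted p = 0.0041). Without YM replicate 5 the log2 fold changes were -1.78 and -1.27. FES1, a nucleotide exchange factor gene of Hsp70, fell by -1.10 ± 0.13 (edgeR adjusted p = 3.8e-05), and by -1.21 without that library. Of the 26 chaperone genes, all tested, BTN2, HSP42, HSP104 and FES1 were the 4 called lower and none higher, 16 were lower and 3 higher by the adjusted p, and the median log2 fold change was -0.37 (-0.44 without YM replicate 5). Of all genes, 1.31% were called lower and 13.2% were lower by the adjusted p. The heat shock element, searched as 3 alternating GAA and TTC units, was found in 1.71% of all promoters, in those of all 4 chaperone genes called and in 14 of the 26 tested.

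**Figure D3:**
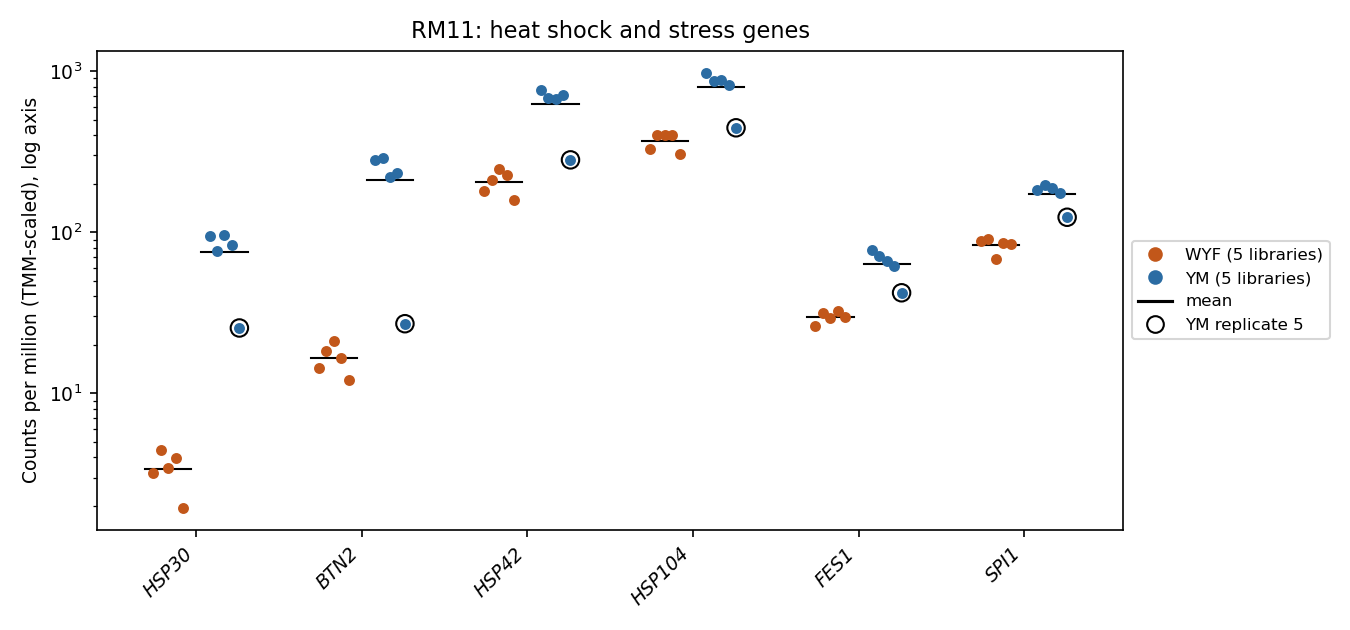
CPM on a log axis for 6 heat shock and stress genes in the 5 WYF libraries (left, orange) and the 5 YM libraries (right, blue) of untreated RM11, with means as bars and YM replicate 5 ringed. YM replicate 5 is the lowest YM library in each gene and remains above every WYF library.

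Genes of the general stress response did not move with the chaperones. Of 24 tested, 2 were called higher and 2 lower, and by the adjusted p 13 were higher and 4 lower, against 13.1% and 13.2% of all genes, with a median log2 fold change of 0.28. GRE1, a hydrophilin gene of desiccation stress, stood at 136, 116, 149, 176 and 139.9 CPM in WYF against 38.3, 44.2, 46.7, 40.9 and 60.9 CPM in YM (log2 fold change 1.64 ± 0.13, edgeR adjusted p = 1.4e-06). SPS100, a spore wall gene counted with 182 reads in WYF and 60 in YM, had 1.55 ± 0.27 (edgeR adjusted p = 0.00037). SPI1, a cell wall gene of stationary phase, fell by -1.06 ± 0.12 (edgeR adjusted p = 2.9e-05), and by -1.15 without YM replicate 5. HSP30 was the other gene called lower. TKL2, the stress-responsive transketolase gene, rose by 1.27 ± 0.10 (edgeR adjusted p = 1.1e-07). NCA3, a SUN family gene of the cell wall, rose by 1.18 ± 0.10 (edgeR adjusted p = 7.2e-08).

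Autophagy genes had 1 call. ATG41, needed for autophagosome formation, stood at 94.5, 101, 113, 119.7 and 105 CPM in WYF against 497, 485, 618, 577 and 313 CPM in YM, with a log2 fold change of -2.22 ± 0.18 (edgeR adjusted p = 1.6e-05). Leaving out YM replicate 5 gave -2.35 ± 0.08. By the adjusted p, 2 of 26 autophagy genes were higher and 8 lower, against 13.1% and 13.2% of all genes.

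Among the synthesis pathways of amino acids that were not added, lower genes outnumbered higher ones in those of arginine and histidine. In arginine synthesis 7 of 15 genes were lower and 2 higher by the adjusted p, against 13.2% and 13.1% of all genes, and none reached 2-fold. ARG4, for argininosuccinate lyase, stood at 2450, 2256, 2541, 2396 and 2539 CPM in WYF against 4879, 4855, 4660, 4713 and 4631 CPM in YM, a log2 fold change of -0.96 ± 0.04 (edgeR adjusted p = 9.4e-12). In histidine synthesis 5 of 7 genes were lower and none higher, led by HIS4 (-0.61 ± 0.04, edgeR adjusted p = 1.4e-09). The other pathways had both lower and higher genes by the adjusted p, where all genes had 13.2% and 13.1%. Sulfur amino acids had 4 lower and 7 higher of 31, and branched-chain amino acids 5 and 4 of 13. Serine, glycine and threonine had 5 and 4 of 19, and lysine 2 and 2 of 10. LYS21 fell by -0.37 ± 0.04 but is 95% or more identical to LYS20 over at least 100 bases, so the split of reads between them is uncertain. ILV5, of the branched-chain pathway, rose by 0.44 ± 0.06 (edgeR adjusted p = 1.2e-05). The letters TGACTC, the core of the Gcn4 site, were found in 15.5% of all promoters, in 6 of 7 tested histidine genes, 13 of 15 arginine genes and 6 of 13 aromatic synthesis genes. Of 15 genes of the general control pathway, 1 was higher by the adjusted p and none lower.

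Among ribosomal protein genes, those that passed the test all rose, by small amounts. Of 77 large subunit genes 29 were higher and none lower by the adjusted p, and of 57 small subunit genes 24 were higher and none lower, against 13.1% of all genes higher and 13.2% lower, with median log2 fold changes of 0.14 in each and no gene at 2-fold. Many ribosomal protein genes have near-identical copies, so levels of single members are uncertain. The proteasome genes had 16 of 33 lower and none higher, with a median of -0.15. Respiratory chain genes had 19 of 38 higher and 1 lower, with a median of 0.16. Glycolysis genes had 12 of 23 lower and none higher, with a median of -0.17. Genes of the citric acid and glyoxylate cycles had 14 of 26 higher and 5 lower by the adjusted p, and 3 called lower, which were DAL7, CIT3 and MLS1.

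**Figure D4:**
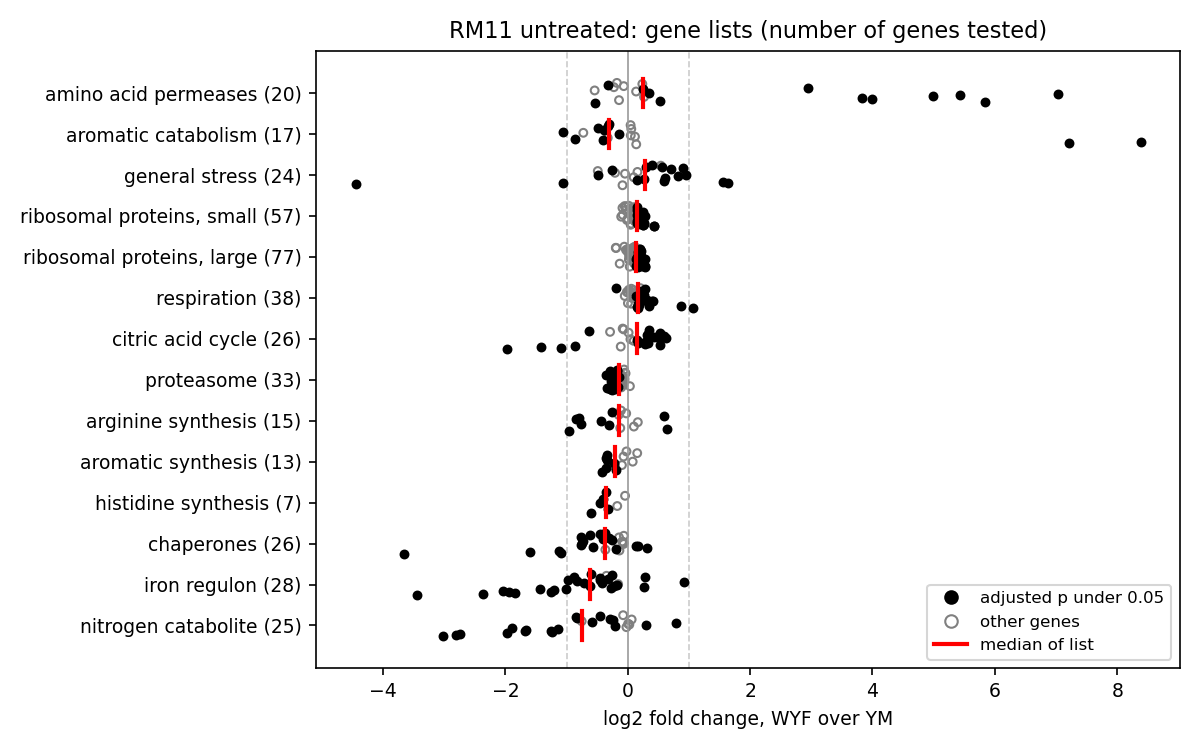
Log2 fold change (WYF over YM, horizontal axis) of every gene tested in 14 gene lists, with the number tested after each name; filled points passed an adjusted p of 0.05, open points did not, red bars are medians and dashed lines mark 2-fold. Most permeases lie near 0 with 7 genes far to the right, whereas the nitrogen catabolite and iron lists are spread to the left with medians of -0.75 and -0.61.

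SED1, the cell wall gene named by the study, stood at 71750, 67950, 72920, 68960 and 71280 CPM in WYF against 53110, 50120, 54900, 53490 and 54170 CPM in YM. The groups did not overlap, and the log2 fold change was 0.41 ± 0.04 (edgeR adjusted p = 1.9e-07). SED1 alone took 6.80% to 7.28% of all counts in WYF and 5.10% to 5.46% in YM. INO1, for inositol phosphate synthase, stood at 4191, 4416, 4098, 4245 and 5356 CPM in WYF against 8022, 7543, 8093, 7625 and 9042 CPM in YM (-0.85 ± 0.07, edgeR adjusted p = 4.4e-07).

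A further group of falls lay in the ribosomal DNA. YLR154W-B stood at 6.91, 12.6, 6.57, 13.2 and 8.56 CPM in WYF against 45.1, 29.4, 70.5, 34.7 and 59.1 CPM in YM (log2 fold change -2.29 ± 0.31, edgeR adjusted p = 0.00052), and YLR154W-F had -2.15 ± 0.36 (edgeR adjusted p = 0.00022). Neither has an entry in the R64 annotation used here. TAR1, chosen after its values were seen, lies opposite the 25S ribosomal RNA and had -1.57 ± 0.32. In RM11 with Cr41 the same genes had log2 fold changes of 1.57, 1.18 and 1.21, which did not pass the test (edgeR adjusted p = 0.34, 0.34 and 0.45). In untreated S288c YLR154W-B had -2.30 and TAR1 -1.93, both past the test (edgeR adjusted p = 0.02 and 0.027).

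Ty ORFs had no call among the 23 of 80 that were tested. By the adjusted p 10 were lower and none higher, against 13.2% and 13.1% of all genes. How reads were split among similar Ty ORFs was not tested, so these may not be separate changes. They took 0.287% to 0.304% of counts in 4 WYF libraries, 0.463% in WYF replicate 2 and 0.439% to 0.503% in YM. The numbers of Ty ORFs lower and higher include WYF replicate 2 and were not repeated without it.

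The same contrast was made in the 10 RM11 libraries treated with Cr41, which share no library with the untreated ones but were on the same lanes. There 99 of 5469 genes were called (1.81%). Of the 98 genes called in untreated cells, 48 were called there in the same direction, which is 49.0% of the untreated calls and 48.5% of those with Cr41. Of 92 that could be tested, 74 had the same direction at an adjusted p under 0.05 and none the opposite. Among the rises 21 of 26 were shared and among the falls 27 of 72, where 0.75% of all genes were called higher and 1.06% lower with Cr41. ARO10 had 8.28, ARO9 6.69, DIP5 6.58, AGP1 4.39 and MEP2 -3.10 with Cr41, and HSP30 had -1.67 and BTN2 -0.79. None of the 26 chaperone genes tested with Cr41 was called, and their median log2 fold change was -0.09. By the adjusted p 9 of these were lower and 4 higher, against 14.8% and 12.3% of all genes there. Of 26 iron genes tested with Cr41, 2 were called lower and 1 higher, with a median log2 fold change of -0.12. By the adjusted p 6 were lower and 1 higher, against 14.8% and 12.3% of all genes there. Among them FIT2 (-1.89), TIS11 (-1.39) and ARN1 (-0.72) fell with Cr41 (edgeR adjusted p = 0.00037, 8.5e-05 and 0.0035). FIT3 had 0.23 and did not pass the test (edgeR adjusted p = 0.31). Whether these changes differed between treated and untreated RM11 was not tested.

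In untreated S288c, 225 of 5581 genes were called (4.03%), 177 higher (3.17%) and 48 lower (0.86%), and 40.7% of genes passed the adjusted p alone, 20.1% as higher and 20.7% as lower. Of the 98 RM11 calls 39 were called there in the same direction, 39.8% of the RM11 calls and 17.3% of those of S288c. This held for 23 of the 26 rises and 16 of the 72 falls, while 10 of the falls were higher in S288c by the adjusted p. The test of the difference itself, the strain by medium interaction over 20 untreated libraries, called 271 of 5684 genes (4.77%), 59 with a more positive change in RM11 (1.04%) and 212 with a more negative one (3.73%). By the adjusted p alone 35.2% of genes differed, 16.8% more positive and 18.4% more negative in RM11. Of the 271 genes called, 21.8% were more positive in RM11. This share was 15.5% of 258 calls without WYF replicate 2 of RM11 and 25.2% of 278 without YM replicate 5 of RM11. Without both libraries it was 22.5% of 271.

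ARO9 and ARO10 had log2 fold changes of 6.59 and 7.85 in S288c, and the differences, 0.60 ± 0.38 and 0.52 ± 0.74 in favour of RM11, did not pass the test (edgeR adjusted p = 0.23 and 0.63). DIP5 rose more in RM11, by 3.13 ± 0.20 (edgeR adjusted p = 1.7e-10). On a scale shared by all 40 libraries DIP5 averaged 281 ± 28.2 CPM in RM11 in WYF and 2.05 ± 0.67 CPM in YM, and 291 ± 29.8 CPM in S288c in WYF and 19.3 ± 2.80 CPM in YM (SD, n = 5 each), so the strains stood apart in YM and close together in WYF. TAT1 averaged 2.79 ± 1.30 CPM in RM11 in WYF and 2.22 ± 0.48 CPM in YM, and 35.7 ± 4.01 CPM in S288c in WYF and 1.79 ± 0.57 CPM in YM. It was thus the single called permease of S288c, of 8, that was not called in RM11, and the difference of the changes was -4.03 ± 0.35 (edgeR adjusted p = 1.5e-08).

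DAL80, MEP2 and DAL5 fell in both strains. DAL80 had -3.45, MEP2 -2.70 and DAL5 -2.83 in S288c, and the differences from RM11 were 0.42 ± 0.14, -0.11 ± 0.08 and 0.09 ± 0.20, of which that of DAL80 alone passed an adjusted p of 0.05 (edgeR adjusted p = 0.026, 0.28 and 0.77). DUR3, chosen after its values were seen, went the other way, with -1.24 in RM11 and 1.31 in S288c (interaction, edgeR adjusted p = 3.4e-09). In the iron list, 2 of 29 genes tested in S288c were called higher and 1 lower, against 3.17% and 0.86% of all genes there. By the adjusted p 6 were higher and 1 lower, against 20.1% and 20.7% of all genes, with a median log2 fold change of 0.08. FET4, chosen after its values were seen, fell in both strains, with -1.43 in RM11 and -1.11 in S288c. FRE5 was too low to be tested in S288c alone, and its interaction of -1.06 did not pass (edgeR adjusted p = 0.30). FIT2 had 1.84 in S288c, and the difference was -5.28 ± 0.42 (edgeR adjusted p = 8.2e-09). FIT2 averaged 4.10 ± 1.93 CPM in untreated RM11 in WYF and 44.4 ± 6.92 CPM in YM. In untreated S288c it averaged 6.08 ± 2.01 CPM in WYF and 1.63 ± 0.71 CPM in YM. Among these untreated groups, RM11 in YM was the one that stood high. In RM11 with Cr41, FIT2 averaged 8.74 ± 3.30 CPM in YM and 2.365 ± 0.54 CPM in WYF.

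HSP30 had -0.21 and BTN2 0.01 in S288c, neither past the test, and the differences were -4.26 ± 0.61 and -3.69 ± 0.63 (edgeR adjusted p = 4.5e-05 and 0.00028). Without YM replicate 5 and WYF replicate 2 of RM11 they were -4.55 and -3.97. BTN2 averaged 15.6 ± 3.30 CPM in RM11 in WYF and 195 ± 98.2 CPM in YM, and 23.7 ± 6.51 CPM in S288c in WYF and 23.4 ± 3.51 CPM in YM. Of 26 chaperone genes tested in S288c, 4 were called higher and none lower, against 3.17% and 0.86% of all genes there. By the adjusted p 16 were higher and none lower, against 20.1% and 20.7% of all genes. Of 24 general stress genes, 17 were called higher and none lower, and 22 were higher and none lower by the adjusted p. INO1 changed in opposite directions, with -0.85 in RM11 and 2.85 in S288c and a difference of -3.71 ± 0.17 (edgeR adjusted p = 1.5e-12).

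**Figure D5:**
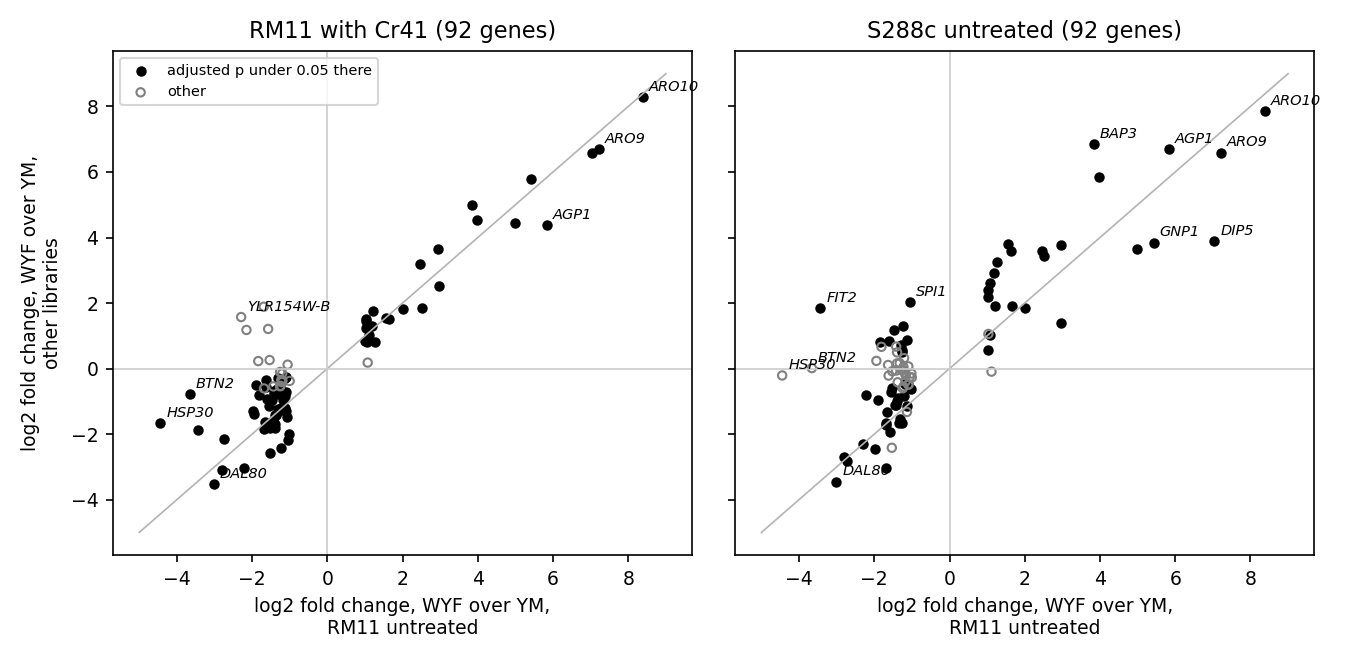
Log2 fold change (WYF over YM) of the genes called in untreated RM11 (horizontal axis) against the same contrast in RM11 with Cr41 (left, 92 genes) and in untreated S288c (right, 92 genes); filled points passed an adjusted p of 0.05 there, and the line marks equal change. ARO10 and ARO9 lie far to the upper right in both panels, while on the right HSP30 (-0.21), BTN2 (0.01) and FIT2 (1.84) lie near or above 0 in S288c.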

How the data were processed

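RNA was extracted with hot phenol and sequenced from 5 libraries per group. The deposited values are estimated counts and TPM per transcript, which the authors made with Salmon 0.13.1 against an S288c transcriptome whose release is not given in the sources used here. Estimated counts were rounded to whole numbers, filtered with filterByExpr, scaled by TMM and tested with edgeR 4.0.16 (R 4.3.3). Each comparison was fitted on its own libraries, and the interaction on 20 untreated libraries. DESeq2 1.42.0, limma 3.58.1 on log2(TPM + 1), other filters and scalings, a replicate block and leaving out libraries were alternatives. Leaving out WYF replicate 2 and YM replicate 5 together was chosen after seeing the data. Of 6661 transcripts, 5993 were matched to R64. The scripts were tested on simulated data. The comparison and the gene lists were chosen with earlier results of these data known. Named genes were the members of the aromatic, permease, SPS and NAD lists, the 10 largest rises and 10 largest falls without overlap, up to 4 called members of each other list or else its member with the smallest adjusted p, the 5 largest interactions in each direction, and SED1.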

Additional observations from a re-analysis of the deposited data

Results flagged for a closer look

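Of 182 groups of 5 libraries examined, 17 held a library whose gap to its nearest neighbour exceeded 0.71 of the group's range, and chance gives about 1 in 20. In WYF, replicate 2 had the highest level of S288c-only transcripts (gap 0.796 of the range) and the highest Ty share (0.9), replicate 1 the highest TAT1 (0.753) and ZPS1 (0.801) levels, replicate 3 the highest TRP1 level (0.849) and replicate 5 the highest INO1 level (0.747). In YM, replicate 5 was the lowest library for HSP30 (0.718), BTN2 (0.745), HSP42 (0.798), HSP104 (0.711) and SPI1 (0.729), as well as for PUT4 (0.72), and the highest for ADH5 (0.801), MLS1 (0.733) and PDC6 (0.734), and replicate 2 was the lowest for PDC5 (0.756) and replicate 1 for PHA2 (0.876).

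The change of WYF over YM differed between RM11 and S288c, by at least 2-fold and past the edgeR interaction test, in 40 of the genes whose values are given here. Smaller differences that also passed, such as those of AGP1 (-0.87, adjusted p = 0.00013) and MUP1 (-0.83, adjusted p = 4.6e-05), are not listed. Values are the RM11 log2 fold change minus that of S288c. Among transport genes and YHR033W they were DIP5 (3.13, adjusted p = 1.7e-10), GNP1 (1.58, adjusted p = 0.0027), TAT2 (1.32, adjusted p = 4.9e-05), YHR033W (1.58, adjusted p = 9.5e-11), BAP2 (-1.87, adjusted p = 1.5e-08), BAP3 (-3.04, adjusted p = 4.9e-08), PTR2 (-1.14, adjusted p = 1.5e-05) and TAT1 (-4.03, adjusted p = 1.5e-08). Among metabolic and autophagy genes they were PDC5 (-1.69, adjusted p = 0.0068), BNA2 (-1.49, adjusted p = 4.3e-06), ATG41 (-1.41, adjusted p = 9.7e-06), INO1 (-3.71, adjusted p = 1.5e-12), PHM8 (-2.67, adjusted p = 4e-06), TDH1 (-1.95, adjusted p = 1.3e-12) and MLS1 (-2.10, adjusted p = 0.0082). DUR3, the urea transporter gene, had -2.56 (adjusted p = 3.4e-09). PDC6 (-2.81, adjusted p = 1.7e-07), MMP1 (1.10, adjusted p = 1.7e-05), CTR1 (-1.58, adjusted p = 0.0001) and ZPS1 (-1.25, adjusted p = 0.032) also differed by at least 2-fold. Iron genes had FIT2 (-5.28, adjusted p = 8.2e-09), FIT3 (-2.66, adjusted p = 1.5e-08), TIS11 (-2.19, adjusted p = 2.6e-06) and ARN1 (-1.76, adjusted p = 4.7e-06). Heat shock and stress genes had HSP30 (-4.26, adjusted p = 4.5e-05), BTN2 (-3.69, adjusted p = 0.00028), HSP42 (-2.47, adjusted p = 0.00018), HSP104 (-2.01, adjusted p = 3.2e-05), FES1 (-1.17, adjusted p = 2.3e-05), GRE1 (-1.95, adjusted p = 2.7e-07), SPS100 (-2.26, adjusted p = 7.4e-05), TKL2 (-1.996, adjusted p = 5.5e-08), SPI1 (-3.09, adjusted p = 4.5e-11), NCA3 (-1.75, adjusted p = 5.1e-09) and CTT1 (-2.47, adjusted p = 5e-08).

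The 5 largest positive differences were HO (4.84, adjusted p = 0.011), R0020C (4.78, adjusted p = 0.012), YGR027W-B (4.80, adjusted p = 0.018), YLR256W-A (7.18, adjusted p = 0.021) and YML045W (9.73, adjusted p = 0.0017), by edgeR. All 5 were at or near 0 in most YM libraries of RM11 and highest in WYF replicates 1 and 2, the libraries with the most reads of S288c-only transcripts. Without WYF replicate 2 and YM replicate 5 of RM11 they were 3.35, 2.92, 2.91, 6.998 and 9.34, with edgeR adjusted p = 0.054, 0.05, 0.077, 0.085 and 0.0049.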

How the results depend on the processing

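The count of genes called in RM11, 98, was 132 with DESeq2, 98 with RLE scaling, 135 with every gene that had any count, 83 with at least 10 counts in every library, 80 with limma on log2(TPM + 1), 99 with length offsets, 94 after thinning and 94 at an adjusted p under 0.01. In 1 fit over all 40 libraries 131 genes were called and 53 were higher, 40.5% of the calls against 26.5%; the cause was not tested. With no fold threshold 1448 genes passed, 721 higher and 727 lower, and 1483 passed in RM11 with Cr41, 2274 in S288c and 2000 for the interaction. Leaving out 1 library at a time gave 98 to 111 genes in RM11 (23 to 28 higher and 72 to 85 lower), 99 to 110 with Cr41, 211 to 246 in S288c and 245 to 301 for the interaction. Same-numbered libraries deviated together with correlations of -0.206 to 0.23, over 0.1 in 2 of 5. Their mean was 0.044, against -0.011 for libraries of different number. With only 5 pairs, these values cannot tell whether replicate numbers pair the libraries. With a replicate block 95 genes were called, 25 higher and 70 lower, with 100 in RM11 with Cr41, 217 in S288c and 277 for the interaction. Of 1748 values over 88 named genes, 1705 kept their direction and side of the threshold, 31 lost their call, 5 gained one (CTR1) and 7 changed sign. The sign changes were in genes that did not pass the test: leaving out 1 library gave -0.0622 (WYF replicate 1) to 0.3973 for TAT1, -0.1342 to 0.0076 (WYF replicate 5) for PUT4 and -0.0990 to 0.0233 for TYR1, which was above 0 without YM replicate 3, WYF replicate 2 or WYF replicate 4 (0.0197, 0.0152 and 0.0233), and TYR1 also had 0.0015 in the fit over all libraries and 0.0921 after thinning. The genes that lost their call were CYC7, ZPS1, FET4, SPI1, GDH3, POX1, AQR1, THI73, CIT3, YLR154W-B, YLR154W-F and TAR1, the last also under the replicate block (adjusted p = 0.057, edgeR). Medium and lane cannot be told apart in any of these fits, and genes near 0 in YM, such as ARO10, rest on few reads there.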
